A study of Mus musculus with 2 samples.

Results

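The Hox genes of the mouse were taken as every protein-coding gene of the GENCODE M21 annotation whose symbol is Hoxa, Hoxb, Hoxc or Hoxd followed by a number, which gave 39 of 21938 protein-coding genes in 4 clusters. The data are DNase-seq of adrenal gland, an assay in which the enzyme DNase I cuts accessible DNA in isolated nuclei, so that sites with many cuts mark open chromatin. There was 1 group of 2 biological replicates, each from 10-day-old female B6CASTF1/J mice, the F1 hybrid of C57BL/6J and CAST/EiJ, with 3 females named per sample. No treatment or mutation was part of the design, so every value below describes this tissue in 2 samples, and no test between groups was possible. The labels name the whole gland and give no sorted cell type, and in such a mixture fewer cells with an open site and less opening per cell cannot be told apart.

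Hox genes encode homeodomain transcription factors that give cells along the head-to-tail axis their positional identity. The genes of a cluster lie in the order in which they are used along that axis, from the anterior genes (paralogues 1 to 4) through the central genes (5 to 8) to the posterior genes (9 to 13), and genes of the same number in different clusters are paralogues. Cells keep their Hox pattern into adult life through Polycomb proteins, which hold the unused part of a cluster silent, and CTCF, a DNA-binding protein that helps to set chromatin loops, binds between Hox genes in many tissues. The adrenal gland combines a cortex from trunk mesoderm with a medulla of neural crest cells.

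Each sample had a shorter and a longer peak list. The shorter one held 98813 peaks in replicate 1 and 55135 in replicate 2, and 48299 merged regions held peaks of both (overlap of at least 1 bp); these are called shared peaks. A height is the value the deposited list gives for a peak. It is not comparable between the samples without centring, since 93% of all shared peaks (44927) were higher in replicate 1, with a median log2 ratio of 0.73. Marker genes of the cell types a gland could hold were also read. Promoters had a shared peak at 3 of 5 cortex markers (Nr5a1, Star and Cyp11a1), 4 of 6 chromaffin markers, 4 of 4 markers of capsule and stroma, 1 of 4 endothelial, 0 of 3 blood and 1 of 3 kidney markers. The cortex and chromaffin shares are near the 63.6% of all protein-coding genes that had one (13948 of 21938), so by themselves they do not show these cell types. The kidney marker was Lrp2, at 0.421 in replicate 1 and 0.502 in replicate 2, while Umod and Slc12a1 had no peak in either replicate. The part of the different cell types in the Hox results was not tested.

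The DNA letters below are those of the matches in shared peaks on which the later paragraphs turn, read from the GRCm38 genome, 5′ to 3′ on the strand of the match, with the matched letters in capitals and 8 flanking bases on each side. The CAST/EiJ alleles of these hybrid mice were not read, so letters and mismatches are those of GRCm38 alone. The CTCF consensus of 14 letters was allowed 1 mismatch, on both strands. Of the 85 shared peaks inside the clusters, 10 held a match, and 8 of these had at least 7 of their 14 letters in a footprint (a short stretch protected from cutting) in at least 1 replicate, of which 7 are shown.
CTCF near Hoxa5: cccagtctCCAGCGGGTGGCGCtcgagtcc
CTCF in Hoxa7: agaaaattCCAGGAGATGGCAGtgtggctc
CTCF between Hoxb13 and Hoxb9: tctcgcggCCGGCAGGGGTCACtgtgtggc
CTCF between Hoxb9 and Hoxb8: cacagtggCCGCTAGATGGCATccttgctc
CTCF near Hoxb5: gtcaatcgCCGGGAGGTGGCGCgctctgct
CTCF in Hoxb3: gggaggggCCGGCAGGGGGCGGcagcggat
CTCF between Hoxd9 and Hoxd8: gcatttggCCACTAGAGAGCGCtgttgctc

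A second set shows the motif TGATTGAT, bound by Hox proteins together with their TALE-class partners Pbx and Meis, which occurred in 3 of the 85 cluster peaks and only beside the paralogue 2 genes among them.
Hoxa2, coding exon: cgaggtctTGATTGATgaactttg
Hoxa2, upstream: tgtctgttTGATTGATccaaaaaa
Hoxb2, coding exon: cgactcctTGATTGATgaagtttg

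Along the clusters most anterior and central genes had an open promoter, most posterior genes had not, and those of paralogues 11 to 13 had none. A promoter was called open when a shared peak overlapped the 1 kb on either side of any annotated start. By this rule 25 of 39 Hox genes (64.1%) were open, beside 63.6% of all protein-coding genes, so the total was near the background. By position, 11 of 12 anterior, 9 of 11 central and 5 of 16 posterior genes were open, or 91.7%, 81.8% and 31.3%, to be read against the same background. None of the 3 paralogue 11, 2 paralogue 12 and 4 paralogue 13 genes had a shared peak. By cluster, 8 of 11 Hoxa, 7 of 10 Hoxb, 4 of 9 Hoxc and 6 of 9 Hoxd genes were open. Genes are not replicates, so these shares carry no test.

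Counting only the tallest peak of each gene, the 25 genes had 23 distinct peaks. Hoxc5 and Hoxc10 had the same tallest peak, as did Hoxd3 and Hoxd4, through far upstream starts of long transcripts that run across a neighbour. Hoxc5 also had a shared peak at its principal start, while Hoxd3 and Hoxd4 had no other. With the start of the principal transcript alone, 21 genes were open, of which 9 of 12 were anterior, 8 of 11 central and 4 of 16 posterior. By that start 13013 of all 21938 protein-coding genes were open. Either replicate alone gave more open Hox genes than the shared rule: 31 with replicate 1 and 28 with replicate 2. Among all 21938 protein-coding genes, 14804 were open with replicate 1 alone and 14145 with replicate 2 alone. Of the 3 Hox classes the posterior count moved most, to 9 of 16 with replicate 1 alone and 7 of 16 with replicate 2 alone, while the anterior count was 11 in both.

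CpG-rich promoters are open in most tissues, and here 97.4% of the protein-coding genes in the 3 highest of 10 equal classes of CpG content (observed over expected within 500 bp of the principal start) had a shared promoter peak. Of the 15 Hox genes in those classes, 9 were open. The 6 others were Hoxa13, Hoxb7, Hoxc11, Hoxc12, Hoxd11 and Hoxd13, all posterior except Hoxb7. Split by class, the CpG-rich Hox promoters were open at 2 of 2 anterior, 5 of 6 central and 2 of 7 posterior genes. With the principal start alone the Hox count was again 9 of 15, beside 97.1% of all genes there. Below these classes 16 of 24 Hox genes were open, beside 49.1% of all genes in the 7 lower classes. Of these, 9 of 10 anterior, 4 of 5 central and 3 of 9 posterior genes were open.

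Open Hox promoters were lower than the usual open promoter. Their median height was 3.32 in replicate 1 and 1.98 in replicate 2, beside 5.95 and 3.10 over all open protein-coding genes. The tallest in replicate 1, Hoxa4 (7.40 and 3.63), stood at percentile 61.8 and 60.9 of all open promoters, and the tallest in replicate 2, Hoxa7 (6.34 and 4.22), at percentile 53.4 and 72.6. By contrast, Hoxd1 (0.789 and 0.986), the lowest in replicate 1, stood at percentile 3.69 and 10.7. Central genes had the highest median, 4.96 and 3.01, against 1.93 and 1.98 for anterior and 2.69 and 1.68 for posterior genes. In the following, values are given for replicate 1 and then replicate 2.

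**Figure D1:**
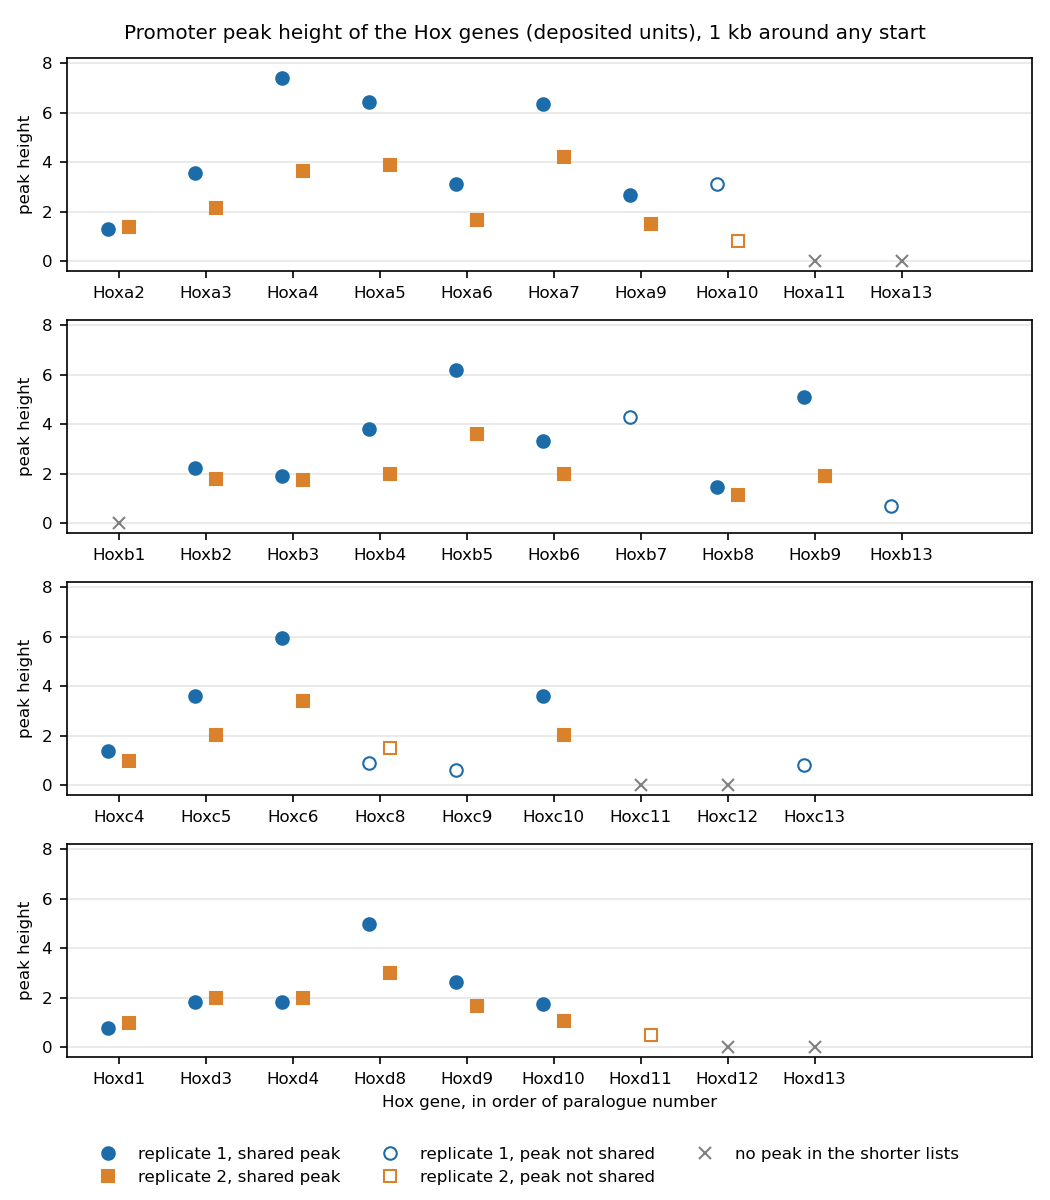
Height of the promoter peak of the Hox genes reported by name (y axis, deposited units) in order of paralogue number (x axis), 1 panel per cluster, with circles for replicate 1 and squares for replicate 2; filled points are shared peaks, open points are peaks not shared, and a grey cross marks genes with no peak in the shorter lists. Heights reach 7.40 in replicate 1 at Hoxa4 and 4.22 in replicate 2 at Hoxa7, and paralogues 11 to 13 have no filled point in any panel.

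In the Hoxa cluster (chromosome 6, 52155590 to 52260880, genes on the minus strand) every gene from Hoxa2 to Hoxa9 was open. Hoxa2, known for patterning of the second pharyngeal arch, was low, at 1.29 and 1.40, under a 616 bp wide peak. Hoxa4 and Hoxa5 were high, at 7.40 and 3.63 and at 6.42 and 3.89. Both had narrow peaks of 240 bp, and Hoxa5 is needed for the formation of lung and thoracic structures.

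Hoxa6 followed with 3.12 and 1.67. Hoxa7 reached 6.34 and 4.22 at an upstream start, inside a UTR of a long Hoxa7 transcript, and its principal start had a second peak of 4.28 and 2.23. Hoxa9 had 2.69 and 1.51 at its coding start. From there on the replicates no longer shared a Hox promoter peak: Hoxa10 had a peak of 3.12 in replicate 1 and one of 0.818 in replicate 2 at different starts, Hoxa11 had none in either list, and Hoxa13 had only one of 0.789 in the longer list of replicate 1. In the longer lists Hoxa10 had peaks of 3.12 and 1.97. Hoxa13 and Hoxa11 act in the limb, gut end and urogenital tract.

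The highest peak of the cluster in replicate 1, 7.91 and 3.66 (chr6:52172621-52172820), lay over the coding start of Hoxa3 and 61 bp from the start of the antisense gene Gm15050. Hoxa3, a gene of the pharyngeal arches and thymus, was counted as open through other annotated starts, up to the principal start between Hoxa6 and Hoxa7, with 3.58 and 2.15 there. So for Hoxa3 the choice of start decides the height: the peak at the coding start was the taller in both replicates.

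In the Hoxb cluster (chromosome 11, 96194316 to 96368256, plus strand) the genes from Hoxb2 to Hoxb9 were open except Hoxb7. Hoxb5 was the highest, at 6.18 and 3.63. Hoxb4, a gene of blood stem cells and the neck region, had 3.80 and 1.99, and Hoxb6 had 3.32 and 2.01. Hoxb2 (2.23 and 1.79), Hoxb3 (1.93 and 1.75) and Hoxb8 (1.46 and 1.16) were lower, and Hoxb9 had 5.12 and 1.93. Centred on all shared peaks, the log2 ratios of replicate 1 over replicate 2 were -0.41, -0.59 and -0.40 at Hoxb2, Hoxb3 and Hoxb8. At Hoxb9 the centred ratio was 0.68. Hoxb7 had a peak of 4.28 in replicate 1 alone; the longer list of replicate 2 held one of 1.97.

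Both ends of the Hoxb cluster were closed. Hoxb1, which acts in the fourth rhombomere of the hindbrain, had no peak in the shorter lists and 0.341 and 0.434 in the longer ones, and it was the only anterior gene of the 4 clusters without a shared peak. Hoxb13, a gene of tail and prostate that lies far from its neighbours, had 0.715 in replicate 1 alone.

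In the Hoxc cluster (chromosome 15, 102921103 to 103036852, plus strand) 4 of 9 genes were open, and all 5 others lay at paralogue 8 or above. Hoxc6 reached 5.94 and 3.42 at its upstream start (chr15:102999201-102999580), and its principal start had no shared peak. Hoxc10, a lumbar-level gene, had 3.59 and 2.04 at a peak that ends 96 bp before its principal start. Hoxc5, at its principal start, had 2.75 and 2.18, and Hoxc4 had 1.37 and 0.973. Hoxc8 had peaks of 0.882 and 1.51 that did not overlap, Hoxc9 and Hoxc13 had 0.628 and 0.809 in replicate 1 alone, and Hoxc11 and Hoxc12 had none in the shorter lists.

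In the Hoxd cluster (chromosome 2, 74668310 to 74765142, plus strand) Hoxd8 stood out with 4.96 and 3.01. Hoxd9 had 2.62 and 1.68, and Hoxd10 had 1.75 and 1.05. Hoxd3 and Hoxd4 were open only through a common upstream start beside Hoxd8, with 1.81 and 1.98, and neither had a shared peak at its principal or coding start. Hoxd1 had 0.789 and 0.986. Hoxd11 had 0.477 in replicate 2 alone, Hoxd12 had none in any list, and Hoxd13, a gene of digits and genital buds, had 0.575 in the longer list of replicate 1 alone.

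**Figure D2:**
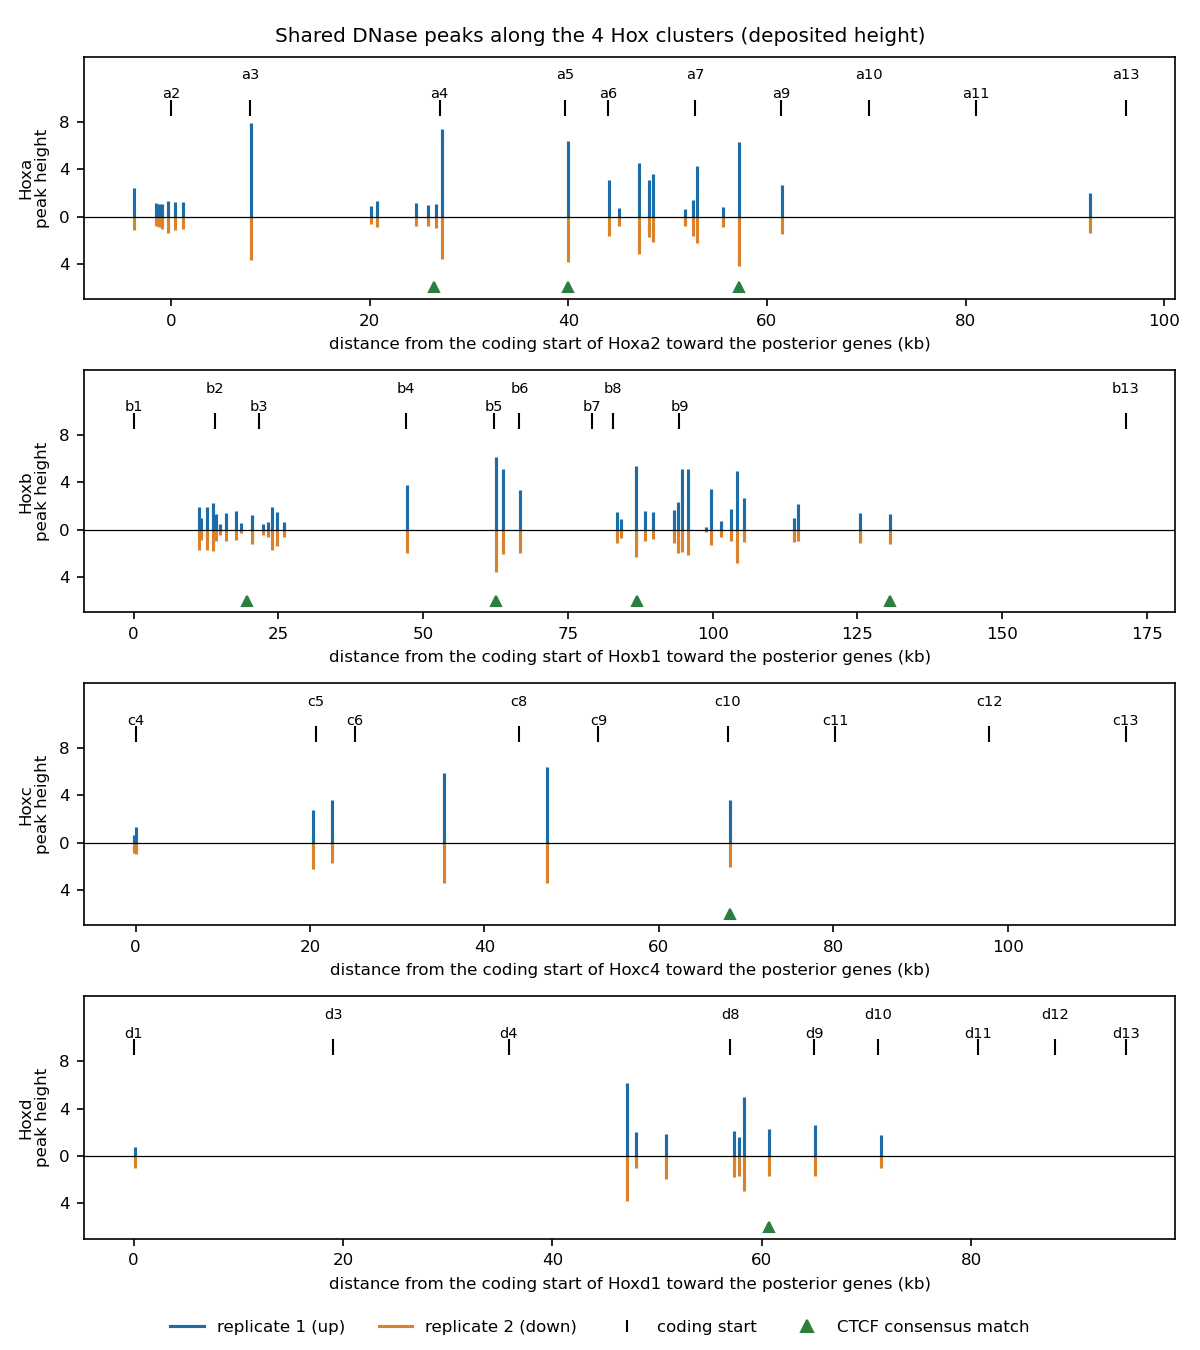
Shared peaks along each cluster: the x axis is the distance in kb from the coding start of the gene named under each panel toward the posterior genes, blue lines upward are heights in replicate 1 and orange lines downward heights in replicate 2 (deposited units), black ticks are coding starts and green triangles CTCF consensus matches. Hoxa and Hoxb hold 30 and 38 peaks (3 of the Hoxa peaks not drawn), and Hoxc and Hoxd hold 7 and 10. In Hoxa 1 shared peak lies posterior to the Hoxa9 promoter, and 0 lie posterior to those of Hoxc10 and Hoxd10. Hoxb differs, with several shared peaks posterior to the Hoxb9 promoter, among them a peak of 5.11 in replicate 1 and 2.13 in replicate 2.

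The clusters as a whole were dense in open sites. The 4 clusters together span 491.8 kb and held 85 shared peaks, or 1.73 per 10 kb, against 0.313 in their 100 kb flanks and 0.177 over the genome. Of the 85 peaks, 69 lay within 1 kb of an annotated start. Those farther away numbered 16 in the clusters and 17 in the 800 kb of the 8 flanks. How far the density follows the number of starts was not tested. The share of bases listed by the authors' files at a false discovery rate (FDR) under 5% was 19.4% in replicate 1 and 16.3% in replicate 2 inside the clusters, 2.78% and 2.28% in the flanks, and 1.89% and 1.25% over the genome. Density differed by cluster, with 2.85 peaks per 10 kb in Hoxa, 2.19 in Hoxb, 1.03 in Hoxd and 0.605 in Hoxc. The flanks of Hoxc were lopsided: 11 shared peaks lay beyond Hoxc4 and 0 beyond Hoxc13.

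Assigned to the nearest coding start, the stretches of posterior genes together held fewer shared peaks per length than those of anterior and central genes, though not in every cluster, and some stretches differed widely between the replicates. Anterior stretches held 2.24 shared peaks per 10 kb, central 2.54 and posterior 0.951. In Hoxb the posterior stretches held 15 peaks (1.81 per 10 kb), near the 2.06 of the central ones, and in Hoxd the posterior stretches held 2 peaks (0.592) and the anterior ones 1 (0.206). The stretches with over 48% of bases listed in both replicates included those around Hoxa2 (57.4% and 48.1%), Hoxa6 (68.5% and 55.7%), Hoxb2 (64.2% and 59.9%) and Hoxb3 (59.3% and 58.9%). Around Hoxc11 the shares were 0.22% and 0%, and around Hoxa11 2.11% and 1.36%, near or below those of the genome.

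Other stretches were open in 1 replicate far more than in the other. Replicate 1 was ahead around Hoxa5 (62.2% against 14.6%), Hoxb7 (26.3% against 0.678%) and Hoxb9 (49.2% against 23.0%). Replicate 2 was ahead around Hoxa3 (34.7% against 8.18%), Hoxa10 (11.3% against 0%), Hoxd10 (31.8% against 3.21%) and Hoxd11 (17.4% against 2.12%). The differences therefore ran in both directions, although replicate 1 had the larger share over the genome. Summed over the posterior genes of a cluster, replicate 1 had 27.2% and replicate 2 13.3% in Hoxb, while Hoxd had 6.56% and 19.0%. Hoxd was also the only cluster with more peaks in replicate 2 (22 against 14), beside 42 against 56 in Hoxa, 62 against 80 in Hoxb and 10 against 20 in Hoxc. With 2 samples the spread between replicates cannot be set against anything, and what differed between them was not tested.

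**Figure D3:**
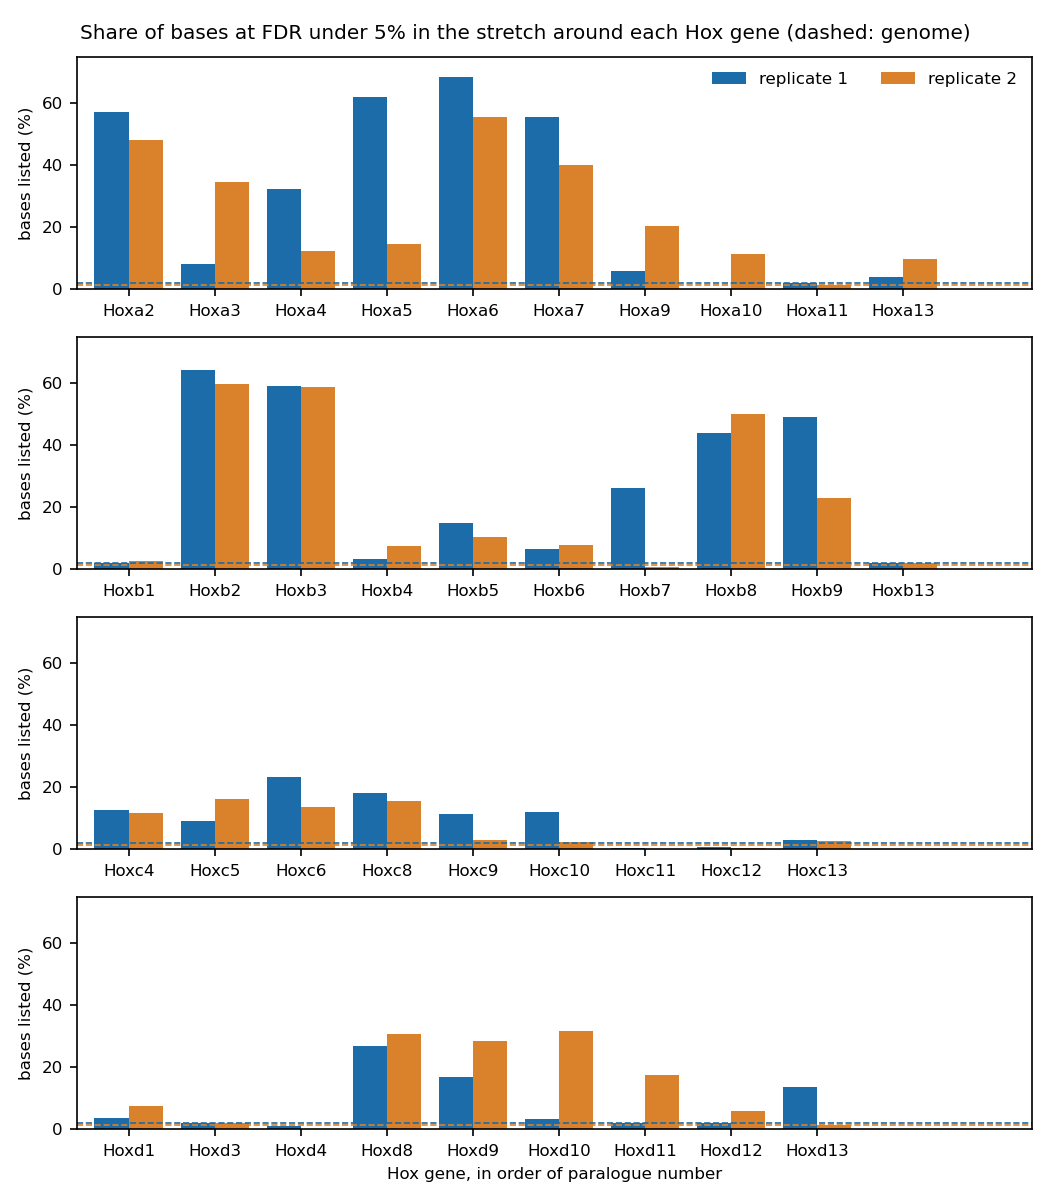
Share of bases (y axis, percent) listed at an FDR under 5% in the stretch nearest to each Hox gene's coding start (x axis, order of paralogue number), blue bars for replicate 1, orange bars for replicate 2, and dashed lines for the genome (1.89% and 1.25%). Hoxa2, Hoxa6, Hoxb2 and Hoxb3 are high in both replicates, while Hoxa5 (62.2% and 14.6%) and Hoxd10 (3.21% and 31.8%) differ in opposite directions.

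Cluster peaks leaned toward replicate 2 once the overall offset was removed. The median centred log2 ratio of replicate 1 over replicate 2 was -0.22 over the 85 cluster peaks (range -1.12 to 0.69), and 74 of them (87.1%) were higher in replicate 1, beside 93% of all shared peaks. By cluster it was -0.23 in Hoxa, -0.28 in Hoxb, -0.20 in Hoxd and 0.07 in Hoxc, and in the flanks it was 0.03. Centred within 10 equal classes of height it was -0.17. The lean lay in the wide peaks: the 31 cluster peaks wider than 400 bp, a width chosen after the peaks had been seen, had a median of -0.46, and 25 of them lay below the centre. The 54 narrower ones had -0.02, with 30 below it. Over all shared peaks the wide ones had -0.07 and the others 0.01.

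**Figure D4:**
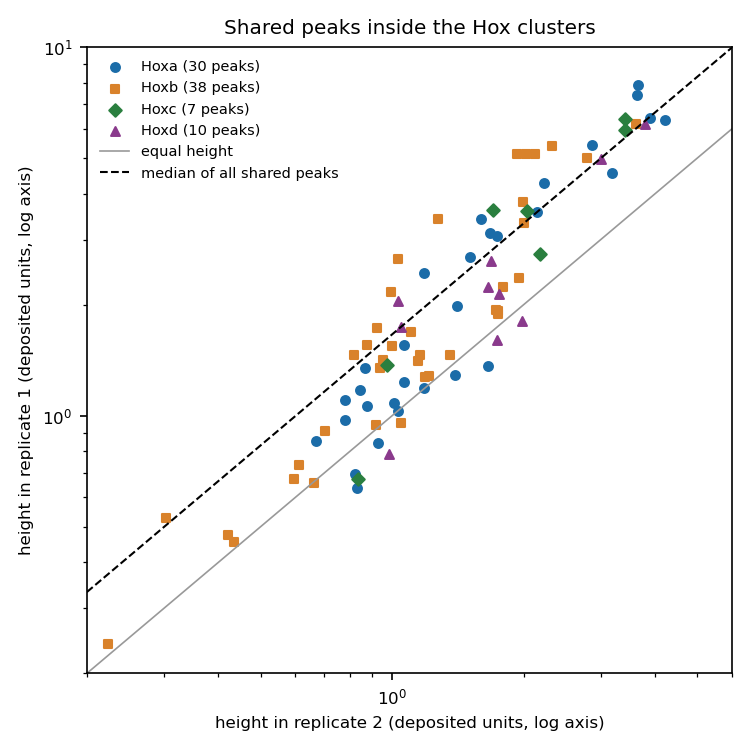
Height of the 85 shared peaks inside the clusters in replicate 1 (y axis) against replicate 2 (x axis), both on log axes in deposited units and marked by cluster; the grey line marks equal height and the dashed line the median ratio of all shared peaks. Of the peaks, 74 lie above the grey line and 55 below the dashed line.

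Of the 4 widest cluster peaks, 3 lay around Hoxb2 and Hoxb3 and 1 beside Mir196a-1. The median width in the clusters was 333 bp, against 240 bp over all shared peaks. The widest shared peak of the whole data set, at 2820 bp, spanned the Hoxb3 coding start (chr11:96343981-96346800), with heights of only 1.27 and 1.19 and with 5 merged peaks in replicate 1 and 4 in replicate 2. The stretch from Hoxb2 toward Hoxb1 held one of 1080 bp (1.94 and 1.73). Both are broad and low, unlike the narrow and tall peaks at Hoxa4, Hoxa5 and Hoxb5.

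Footprints were fewer per base in the 4 clusters together, with 361 in replicate 1 and 321 in replicate 2. These made 10.2 and 9.07 per kb of shared peak, beside 12.2 and 11.4 over all shared peaks. Hoxc, with 7 peaks, went the other way, at 14.1 and 13 per kb. Of the 85 peaks, 58 (68.2%) had footprints that overlapped between the replicates, beside 83.5% of all. In Hoxc it was 6 of 7, and in the flanks 23 of 25. The peak in Hoxa7 had 5 overlapping footprints and the peak at Hoxa6 had 6, while the 2820 bp region at Hoxb3 had 6 among 31 and 25.

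CTCF matches marked few cluster peaks, 10 of 85 (11.8%), beside 23.7% of all shared peaks. Of the cluster peaks, 69 lay within 1 kb of an annotated start, and among all shared peaks the share was 13.4% within 1 kb of a start and 32.2% farther away. There was 1 match in each of the 10 peaks, 5 on the plus and 5 on the minus strand. In Hoxa the 3 matches posterior to Hoxa3 were on the minus strand, the strand of the genes.

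At least 7 of the 14 letters lay in a footprint at 7 of the 10 matches in replicate 1 and 8 in replicate 2, beside 86.4% and 85.5% of the 11874 matches in all shared peaks. The matches near Hoxa5 (chr6:52204657-52204670, 307 bp from its coding start, in an intron of the long Hoxa3 transcript) and near Hoxb5 (chr11:96303245-96303258, 369 bp from its coding start, in an intron of Hoxb5os) lay beside paralogues, and in both all 14 letters were in footprints of both replicates. The match in the Hoxa7 UTR (chr6:52221807-52221820) lay 4297 bp from the coding start of Hoxa9, on its downstream side, under the last tall promoter peak of the cluster. The match at Hoxc10 lay between genes, under the last shared peak on the posterior side of Hoxc. The match between Hoxd9 and Hoxd8 (chr2:74702395-74702408, between genes) was under a peak of 2.23 and 1.66, and the one between Hoxb9 and Hoxb8 (chr11:96278948-96278961, between genes) under a peak of 5.40 and 2.32. All these matches had 14 letters in footprints of both replicates, and the one between Hoxb13 and Hoxb9 (chr11:96235104-96235117) had 13 and 14. The only one with no mismatch, in a coding exon of Hoxb3, had 0 letters in replicate 1 and 12 in replicate 2. The 2 others had none in either.

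The peak between Hoxb9 and Hoxb8 (chr11:96278881-96279060, plus strand) is given whole, with the CTCF match in capitals, because it joins a tall peak and a fully footprinted match.
Hoxb9 to Hoxb8 peak: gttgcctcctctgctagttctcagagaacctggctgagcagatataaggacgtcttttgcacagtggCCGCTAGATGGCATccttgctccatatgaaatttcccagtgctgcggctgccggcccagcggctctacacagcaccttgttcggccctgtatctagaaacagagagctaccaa

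CAAGGNCA is the motif of NR5A1, the nuclear receptor that directs the adrenal cortex. Over the clusters, 9 of 85 peaks (10.6%) held it, close to the 10.7% of all shared peaks. Among all shared peaks the share was 7.86% within 1 kb of a start and 13% farther away. Inside the clusters 1 peak held the motif more than once, as did 1.03% of all shared peaks (499). This was the peak between Hoxa11 and Hoxa13 (chr6:52257061-52257240, plus strand, in an exon of the uncharacterised transcript 9530018H14Rik), with heights of 1.99 and 1.41, the only shared peak posterior to Hoxa9 in that cluster. Its matches, in capitals, had 3 and 4 of 8 letters in footprints of replicate 1 and 6 and 0 in replicate 2.
Hoxa11 to Hoxa13 peak: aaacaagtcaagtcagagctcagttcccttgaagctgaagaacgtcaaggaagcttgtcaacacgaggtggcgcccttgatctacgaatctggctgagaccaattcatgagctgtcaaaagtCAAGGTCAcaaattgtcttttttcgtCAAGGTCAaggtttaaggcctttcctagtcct

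The Hox and TALE motif TGATTGAT was found in 3 of 85 cluster peaks (3.53%), beside 0.412% of all shared peaks (199), a comparison of small counts. The matches in the coding exons of Hoxa2 (chr6:52164533-52164540, 111 bp inside the coding start, counted to the far end of the match) and Hoxb2 (chr11:96351915-96351922, 104 bp inside, counted to the near end) share a stretch of 13 bases, cttgattgatgaa, and run against the direction of the genes in both. The other, upstream of Hoxa2 (chr6:52164935-52164942), lay 291 bp before its coding start. None of the 3 had more than 5 letters in a footprint. The retinoic acid element DR5, a direct repeat spaced by 5 bases, matched in 1 cluster peak, in an intron annotated to Gm11536 and Hoxb3, 3013 bp before the Hoxb3 coding start (chr11:96341236-96341252; 1.46 and 1.36), and in 1 flank peak, beyond Hoxc4 (chr15:103061714-103061730; 1.62 and 1.24), beside 0.112% of all shared peaks. Neither match lay in a footprint.
DR5 in Hoxb3: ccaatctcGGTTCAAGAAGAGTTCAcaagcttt
DR5 beyond Hoxc4: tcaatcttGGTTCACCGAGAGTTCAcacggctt

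Other motifs, searched on both strands and free to overlap, were read beside their share over all shared peaks. CCAAT occurred in 49.4% of cluster peaks, beside 29.4%, and the letters AGATAA, read by GATA factors, in 9.41%, beside 6.23%. TGANTCA of AP-1 occurred in 8.24% beside 9.16%, the E-box CAGCTG in 18.8% beside 21.9%, and YY1 (AAGATGGC) in 1.18% beside 2.92%. The SP motif GGGCGG occurred in 40% beside 36%. Over all shared peaks its share was 64.2% within 1 kb of a start and 13.1% farther away, and 69 of the 85 cluster peaks lay within 1 kb of a start. For the others the share within 1 kb of a start was 34.3% (CCAAT), 4.69% (AGATAA), 5.9% (TGANTCA), 21.6% (CAGCTG) and 4.48% (AAGATGGC). Cluster peaks are wider than the usual peak, and a wider peak offers more places for a short motif.

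Peaks over 1 kb from every start were few in the clusters, 16 of 85, beside 26622 of all 48299 shared peaks. Those named here lay 1177 to 2907 bp from the nearest start. The highest was in Hoxc, between Hoxc9 and Hoxc8 in an intron of the long Hoxc5 transcript (chr15:102987501-102987700), with 6.40 and 3.42, the highest shared peak of that cluster in replicate 1 and level with the Hoxc6 peak in replicate 2. In Hoxb the highest were the CTCF-matching peak described above, one beside Hoxb9 (chr11:96269981-96270280; 5.11 and 2.13) and one in an intron of Hoxb5os (chr11:96301841-96302120; 5.13 and 2.02). In Hoxa it was one between Hoxa6 and Hoxa7 (chr6:52211601-52211860; 4.55 and 3.19), and in Hoxd there was 1 in all, the CTCF-matching peak between Hoxd9 and Hoxd8.

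The clusters also hold microRNA genes, which silence messenger RNAs through a seed, bases 2 to 8 of the mature strand. Mature 5p strands from RefSeq (GRCm38.p6) are shown by seed family, with the seed in capitals.
mmu-miR-10a-5p: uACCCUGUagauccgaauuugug
mmu-miR-10b-5p: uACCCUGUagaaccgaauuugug
mmu-miR-196a-5p: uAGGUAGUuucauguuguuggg
mmu-miR-196b-5p: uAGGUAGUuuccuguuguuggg

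A shared peak lay within 1 kb of the hairpin at Mir196a-1, between Hoxb13 and Hoxb9, where the nearest was 104 bp away (0.735 and 0.614) and a taller one lay on the other side (3.42 and 1.27), and at Mir615 (2.75 and 2.18), in Hoxc5. There was none at Mir10a, Mir10b, Mir196a-2 or Mir196b, where the nearest shared peak lay 1357, 10030, 6650 and 3825 bp away. The one nearest to Mir10b, between Hoxd4 and Hoxd8 (chr2:74715841-74716040), was the highest of the Hoxd cluster, at 6.18 and 3.79, and lies at the start of the antisense gene Hoxd3os1.

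Of 18 long noncoding genes that start inside the clusters, 10 had a shared peak at a start, beside 25.9% of all long noncoding genes, among them Gm53 (5.00 and 2.80) in Hoxb and Haglr (0.789 and 0.986), which shares the Hoxd1 peak. Several others, among them Hoxaas2, Gm29430, Gm11536 and Gm28793, also had a peak within 1 kb of a Hox start. The count is therefore not separate from that of the Hox promoters. Hotair in Hoxc and Hoxa11os had no peak in the shorter lists, nor had Hottip beyond Hoxa13. Among the 10 other protein-coding genes in or beside the clusters, 5 were open, beside 63.6% of all protein-coding genes. Of these, Gm28308 inside Hoxa had the same peak as Hoxa3. Lnpk, beyond Hoxd13, had 8.38 and 4.04, and Mtx2, on the Hoxd1 side, had 3.96 and 2.33. Between Lnpk and Hoxd13, the homeobox gene Evx2 had only 0.471 in replicate 2 at its promoter, and Evx1, beyond Hoxa13, had none. Inside Evx2, over 1 kb from any start, lay a low shared peak (0.769 and 0.787).

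Genes of the Hox pathway outside the clusters were taken from lists, read as counts beside the 63.6% of all genes. They were not matched for CpG content, and 97.4% of all genes in the 3 highest CpG classes were open. All 9 genes of the TALE cofactors Pbx, Meis and Pknox had a shared promoter peak, with a median of 6.69 and 3.01. So had all 16 Polycomb genes (8.45 and 4.03) and 10 of 11 Trithorax and looping genes, among them Kmt2a (16.1 and 8.21), which encodes a histone methyltransferase that keeps Hox genes active, and Ctcf (7.04 and 3.69). Kdm6b had 0.749 in replicate 1 alone. Of 15 genes of retinoic acid supply and response, 10 were open, with Rarg at 8.18 and 3.58 and the synthetic enzyme Aldh1a2 at 3.26 and 1.81, while Cyp26a1 had none. Of the 6 ParaHox and caudal genes, the sister group of the Hox genes, Gsx1 alone was open, at 2.90 and 1.64, and Pdx1 and the 3 Cdx genes had no peak. Markers of places the gland should lack gave Emx1 at 0.655 and 0.731, no shared peak at Otx2, and none in either replicate at the limb genes Tbx4 and Pitx1.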

How the data were processed

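DNase-seq of 2 samples was analysed. The files are deposited on mm10, per the labels; no aligner or peak caller is given in these sources. Per sample the authors deposited a shorter and a longer peak list with a signal value per peak, used as its height (159343 and 93845 peaks in the longer lists), footprints, which all carry a p-value of 0.01, and stretches with FDR p-values under 0.05. Total read depth is not analysed here; all heights are whole multiples of 0.006685 in replicate 1 and 0.006198 in replicate 2 (within 0.05 of a step), and the number of samples limits the precision. The labels name biological replicates, each naming 3 females. Chromosome lengths of GRCm38.p6 were checked against mm10 (0 intervals past an end).

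Shorter lists were used. Peaks were merged at 1 bp of overlap, and a region's height is its highest peak. An open promoter has a shared peak within 1 kb of a GENCODE M21 start; principal starts are APPRIS-tagged. Footprints were assigned by their centre. Stretches run to the midpoints between coding starts. Distances between a motif match and a coding start are counted from the end of the match with the lower coordinate. All 39 Hox genes enter the counts, but some values and sequences are not reported here. Named were the others, neighbours within 100 kb, and the 5 highest peaks per cluster over 1 kb from a start. Python 3.11.15 with numpy 2.4.6 and pysam 0.24.0 was used, with bedtools 2.31.1 to merge stretches. Overlap and motif searches were tested on simulated data. With 1 group no contrast was made. Members, lists and alternatives were chosen with earlier results of these data known.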

Additional observations from a re-analysis of the deposited data

How the results depend on the processing

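Across 16 results, 124 alternative values were computed, of which 114 stayed within 1.5 times the count or within the spread between the replicates, 10 moved and 0 changed sign. Only the centred log2 ratio could change sign, and its alternatives ran from -0.27 to -0.08. The spread allowed for it was larger than the ratio itself. For median heights the spread was 0.947, which holds the offset between the samples. For the ratio and the heights the tally therefore says little about stability. The alternatives were the longer lists, promoter windows of 500 bp and 2 kb, single starts, stricter overlap or height, other footprint and motif rules, and each replicate alone. The coding start was added after seeing the annotation and gave 22 open Hox genes, beside 9798 of all 21938 protein-coding genes. With replicate 1 or 2 alone, open Hoxc genes numbered 5 to 7, open posterior genes 7 to 9, peaks in the clusters 127 to 152 and in the flanks 31 to 45 (1 sample in place of 2 makes these lists longer). With the 50% highest peaks, 51 shared peaks were left in the clusters and 8 in the flanks. Restricting footprints to those that overlap between replicates left 135 in replicate 1 and 132 in replicate 2. CTCF matches fell to 1 peak with no mismatch and rose to 28 with at most 2. The height and the depth of a list limit what counts as closed: a gene without a peak may still be open below the authors' threshold. No paired analysis was possible because there is 1 group.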
